A study of Homo sapiens with 51 samples.

Results

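Keratins are the intermediate filament proteins of epithelial cells. The 10 keratin genes described here are KRT5, KRT6A, KRT7, KRT8, KRT15, KRT17, KRT18, KRT19, KRT80 and KRT81, taken by symbol from the 25421 gene rows of a count table. The table came from PLATE-seq, a method that reads the 3′ ends of messages and barcodes each well of a plate before pooling, run on 100 ng of total RNA per library after 6 days of culture. It covered 5 human pancreatic ductal adenocarcinoma cell lines in 51 libraries, which fall into 17 groups of 3. HPAFII and PATU8988S were present only untreated. KP4, PANC1 and PK45H were present in 5 states: untreated, transduced with mCherry, transduced with OVOL2, and each of these open reading frames combined with M2rtTA. OVOL2 is a zinc-finger transcription factor and mCherry, a fluorescent protein, was the negative control. M2rtTA is the transactivator of tetracycline-inducible promoters. All transduced groups, mCherry controls included, received lentivirus at a multiplicity of infection of 2 with polybrene (8 µg/ml), and the next day brought puromycin (2.5 µg/ml) together with doxycycline (0.6 µg/ml). Each line is one established line, and nothing in the labels says that the 3 libraries of a group came from separate cultures, so that p-values measure the spread between these libraries, which may be technical.

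Keratin filaments are built from pairs of one type I and one type II protein. KRT8 (type II) and KRT18 (type I) are the basic pair of simple epithelia such as the pancreatic duct, where KRT7 (type II) and KRT19 (type I) are added. KRT5 (type II) and KRT15 (type I) belong to the basal layer of stratified epithelia, KRT6A and KRT17 are induced in stressed or wounded epidermis, KRT80 is a type II keratin of the cell edge and the desmosome region, and KRT81 is a type II keratin of hair. Epithelial cells that turn mesenchymal typically lose keratins and gain vimentin, and OVOL2 is known as a repressor of that transition.

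In the GENCODE v29 annotation of GRCh38, the type II members lie on chromosome 12 and the type I members other than KRT18 on chromosome 17. On chromosome 12, KRT80 spans 52168996 to 52192000, KRT7 spans 52232520 to 52252186, KRT81 spans 52285913 to 52291534, KRT6A spans 52487174 to 52493257 and KRT5 spans 52514575 to 52520687. KRT8 spans 52897187 to 52949954 on the minus strand, and its start overlaps that of KRT18, a type I gene at 52948871 to 52952901 on the plus strand. On chromosome 17, KRT15 lies at 41513743 to 41522529, KRT19 at 41523617 to 41528308 and KRT17 at 41619441 to 41624842, all on the minus strand.

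Near-identical copies limit what a 3′ count can assign. Of the 31-base words in the last 500 bases of each gene's transcripts, 33% of those of KRT18 and 28.2% of those of KRT8 also occur in other genes, mostly processed pseudogenes. The share was 26.1% for KRT81, 17.4% for KRT17, 8.09% for KRT19, 5.85% for KRT7, 3.4% for KRT6A and 0.426% for KRT80. No such word of KRT5 or KRT15 occurred elsewhere. KRT81 also lies within the span of the hair keratin KRT86 (52249300 to 52309163), on the opposite strand. The coding ends of this pair are printed because KRT81 and KRT86 moved together in PANC1, and counts could pass between the rows. The printed bases leave out what follows the stop codon and cannot show whether counts do so. Over the whole coding sequence, aligned with gaps, the pair is 89.6% identical. The last 60 coding bases (before the stop codon, 5′ to 3′, from the GRCh38 transcripts) were compared without gaps, lined up at the 3′ end. They differ at 31, and capitals in the KRT86 line mark the bases that differ from KRT81.
KRT81: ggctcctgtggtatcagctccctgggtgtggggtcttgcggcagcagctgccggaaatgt
KRT86: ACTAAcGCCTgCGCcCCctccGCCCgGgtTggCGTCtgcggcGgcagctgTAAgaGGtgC

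Library totals ran from 1165399 counts in an HPAFII library to 7490556. The 10 keratins together took from 0.0563% to 0.108% of the counts in KP4 libraries, from 0.187% to 0.332% in PANC1, from 0.191% to 0.483% in PK45H, from 0.357% to 0.362% in PATU8988S and from 0.551% to 1.27% in HPAFII. Levels are given as CPM, which puts the counts of all 51 libraries on one scale by their totals and TMM factors. OVOL2 itself read 2.18, 10.5 and 2.31 CPM in the KP4 libraries with OVOL2 and M2rtTA, and its mean in that state was 2.15 ± 0.704 CPM (SD, n = 3) in PANC1 and 4.53 ± 0.228 CPM in PK45H. The means of the other groups of these lines ran from 0.539 to 1.94 CPM, and the sources do not say whether transcripts of the lentiviral open reading frame are counted in this row. With M2rtTA, the OVOL2 row rose over mCherry by 3.08 on the log2 scale in KP4 (adjusted p = 0.0272) and by 1.98 in PK45H (adjusted p = 0.0135), and its difference in PANC1 was 1.40 (adjusted p = 0.244). Without M2rtTA the differences were -0.02, -0.44 and 0.12 in KP4, PANC1 and PK45H, with adjusted p from 0.820 to 0.994. Untreated OVOL2 means were 5.24 ± 3.18 CPM (SD, n = 3) in HPAFII and 23.2 ± 4.22 CPM in PATU8988S. The summed CPM of 9 epithelial markers (EPCAM, CDH1 and others) was higher in every OVOL2 library than in any mCherry library of the same line and M2rtTA state, and 8 or 9 of the 9 were over 3 counts in each untreated line.

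In 3 libraries the keratins stood apart from the other libraries of the same group. HPAFII replicate 2, which also had the smallest total, read KRT7, KRT8, KRT18 and KRT19 at 0.262 to 0.433 of the mean of its 2 mates. KP4 with OVOL2 and M2rtTA, replicate 1, had KRT7 at 1.73 times and KRT8 at 0.397 times the mean of its mates. PANC1 with OVOL2 and M2rtTA, replicate 1, had KRT7 at 1.65 times and KRT8 at 0.673 times that mean. Values without these libraries are given beside the calls that rest on them.

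The untreated lines were compared first, to ask how much keratin each line carried before any transduction. For all 6 keratins that passed the filter on low counts (KRT7, KRT8, KRT18, KRT19, KRT80 and KRT81), edgeR's quasi-likelihood test found a difference over the 5 lines, with Benjamini-Hochberg adjusted p from 1.04e-08 (KRT7) to 0.00390 (KRT81). The share of all genes called in that test was 57.8%. On average, the 4 simple-epithelial keratins were higher in the lines kept untreated, HPAFII and PATU8988S, than in KP4, PANC1 and PK45H. KRT80 and KRT81 did not pass the threshold in that contrast. In RNA from whole cultures, fewer expressing cells and less RNA per cell cannot be told apart.

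KRT7, the type II keratin of ducts and glands, read 4752, 2184 and 5344 CPM in HPAFII and 1462, 1482 and 1526 CPM in PK45H. It read 855, 857 and 817 CPM in PATU8988S, 154.5, 164 and 203 CPM in PANC1, and 183, 128 and 191 CPM in KP4. The libraries of HPAFII, PK45H and PATU8988S did not overlap with one another or with the other lines, and those of PANC1 and KP4 overlapped (adjusted p = 0.837). The order of KRT7 set PK45H, one of the transduced lines, above PATU8988S.

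KRT8, the type II partner of the basic simple-epithelial pair, had means of 1984 ± 1157 CPM in HPAFII, 963 ± 44.7 CPM in PATU8988S, 829 ± 68.8 CPM in PANC1, 239 ± 53.5 CPM in PK45H and 125 ± 8.53 CPM in KP4 (SD, n = 3 each). Its partner KRT18 followed the same order, at 3380 ± 1418, 2011 ± 71.8, 1604 ± 137, 722 ± 1.85 and 410 ± 54.5 CPM. For both genes PANC1 and PATU8988S did not pass the threshold as a pair (adjusted p = 0.724 for KRT8 and 0.378 for KRT18), and for KRT8 neither did PK45H and KP4 (adjusted p = 0.0564). KRT19, a type I keratin used as a marker of pancreatic ducts, ran at 772 ± 368 CPM in HPAFII, 472 ± 40.2 CPM in PANC1, 270 ± 8.21 CPM in PATU8988S, 110 ± 12.5 CPM in PK45H and 20.1 ± 0.987 CPM in KP4. PANC1 and HPAFII were the only pair of lines for which KRT19 did not pass (adjusted p = 0.0636), and KP4 had the lowest mean of all 4 genes, though for KRT7 it was not told apart from PANC1.

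KRT80 had its highest untreated means in PK45H, at 76.8 ± 3.84 CPM, and HPAFII, at 55.5 ± 11.5 CPM, a pair that did not pass the threshold (adjusted p = 0.107). PANC1 followed with 29.3 ± 4.62 CPM, PATU8988S with 23.5 ± 2.46 CPM and KP4 with 12.2 ± 1.97 CPM. KRT81 ran from 5.79 ± 2.18 CPM in HPAFII to 0.785 ± 0.517 CPM in KP4, and 7 of its 10 line pairs did not pass. Over the 6 keratins and 10 pairs of lines, 46 of 60 tests passed, beside 20.2% to 32.5% of all genes per pair.

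The mean of HPAFII and PATU8988S lay above that of the other 3 lines by 2.41 for KRT7 (SE 0.16, adjusted p = 3.29e-08), 2.26 for KRT8 (SE 0.22, adjusted p = 1.71e-06), 1.75 for KRT18 (SE 0.15, adjusted p = 5.10e-07) and 2.18 for KRT19 (SE 0.18, adjusted p = 2.33e-07), all on the log2 scale. These are 4 of 6 members called, beside 34.8% of all genes, and the median of the 6 was 1.97 against 0.00 over all genes. Without HPAFII replicate 2 the 4 differences were 2.56, 2.45, 1.90 and 2.35. Between the pair of lines that were not transduced, all 6 keratins were lower in PATU8988S than in HPAFII, where 20.2% of all genes were called and 9.14% were called lower. The log2 differences were -2.30 for KRT7, -2.49 for KRT81, -1.54 for KRT19, -1.28 for KRT80, -1.07 for KRT8 (adjusted p = 0.0408) and -0.77 for KRT18 (adjusted p = 0.0330). The KRT8 and KRT18 calls were lost in 5 of 6 fits that left out 1 library, with adjusted p up to 0.204 and 0.154. The KRT81 call was lost without HPAFII replicate 1 (adjusted p = 0.0703) and without PATU8988S replicate 1 (adjusted p = 0.0598). The count of keratins fell to 3 without HPAFII replicate 1 and was 8 without replicate 2, when KRT7 differed by -2.59, KRT19 by -1.88, KRT8 by -1.46, KRT80 by -1.42 and KRT18 by -1.07.

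**Figure D1:**
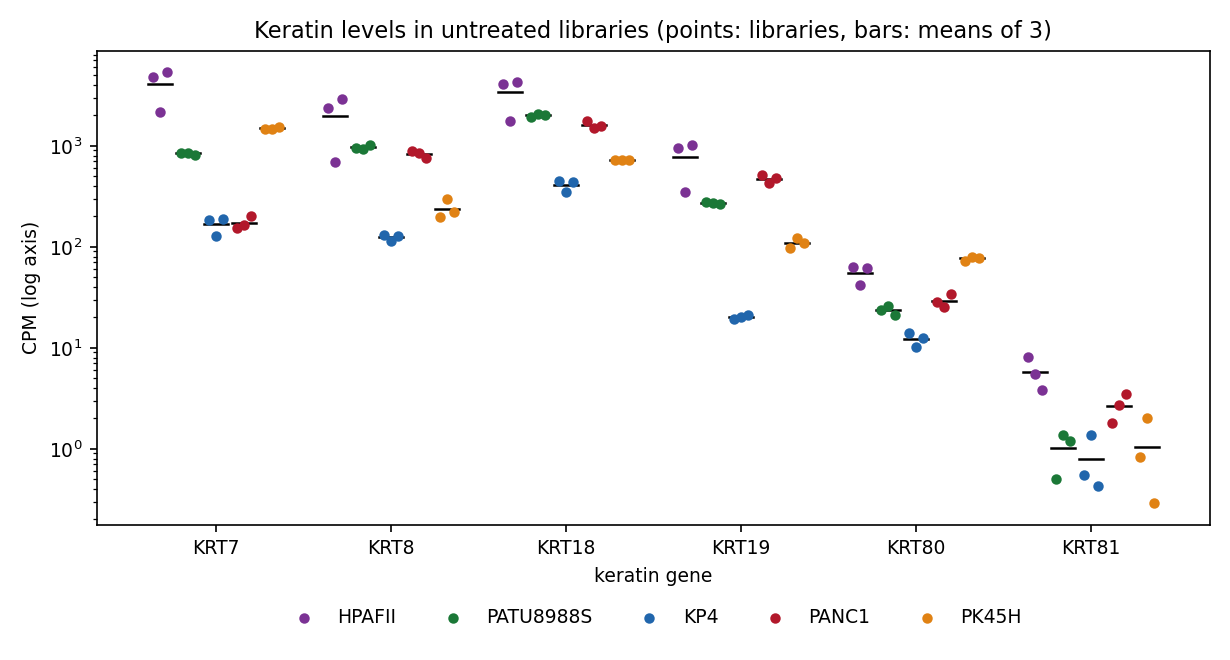
CPM of the keratins in the untreated libraries of 5 lines, on a log axis, with one point per library and a bar at the mean of 3. HPAFII shows the widest spread, with replicate 2 at the low end for KRT7, KRT8, KRT18 and KRT19, and KP4 has the lowest means of these 4 genes.

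The stratified-epithelial members were near the limit of detection in untreated cells. KRT5, the basal-layer type II keratin, had at most 5 counts in any library and more than 3 in 2 of the 51. KRT6A, a keratin of wounded epidermis, exceeded 3 counts in 3 of the 51 libraries. In HPAFII it read 2.92, 1.56 and 4.05 CPM (26 counts in all), at least 2.44-fold above the level that 3 counts would have in any of the 15 groups at or below that floor. KRT15 had at most 32 counts, or 5.17 CPM, in a library, and KRT17 had untreated means of at most 0.737 ± 0.645 CPM (PATU8988S). These depths cannot show whether KRT5 or KRT6A differs between the treated groups.

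OVOL2 was set against mCherry within each line, with and without M2rtTA, to ask how the keratins respond to this factor. Averaged over KP4, PANC1 and PK45H with M2rtTA, 7 of the 8 keratins tested rose and none fell, while 32.9% of all genes were called and 15.7% were called higher. The mean log2 differences were 1.05 for KRT80 (SE 0.09, adjusted p = 4.46e-11), 0.93 for KRT8 (SE 0.14, adjusted p = 2.64e-06), 0.60 for KRT19 (SE 0.08, adjusted p = 2.57e-07), 0.52 for KRT7 (SE 0.12, adjusted p = 0.000601), 0.29 for KRT18 (SE 0.06, adjusted p = 8.90e-05) and 1.5 for KRT81 (SE 0.30, adjusted p = 0.000139). KRT17 also passed (adjusted p = 3.38e-05), with a fitted difference of 3.31 that includes a control group at the floor and is no bound. KRT15 did not pass (0.40, adjusted p = 0.358). The count was also 7 without replicate 1 of the OVOL2 and M2rtTA group of KP4 or of PANC1, when KRT7 differed by 0.41 and 0.42 and KRT8 by 1.04 and 0.98. The median of the 8 was 0.77, against 0.03 over all genes.

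Without M2rtTA, 3 of the 8 rose on average and none fell, where 18.1% of all genes were called, 9.32% higher and 8.81% lower. These were KRT18 by 0.60 (SE 0.06, adjusted p = 4.03e-10), KRT80 by 0.35 (SE 0.09, adjusted p = 0.00639) and KRT81 by 1.25 (SE 0.31, adjusted p = 0.00341). The median of the 8 was 0.39 against 0.00 over all genes. Once all libraries were thinned to the total of the shallowest one, KRT80 (adjusted p = 0.171) and KRT81 (adjusted p = 0.426) no longer passed, which leaves 1 member.

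The lines did not respond alike. A test of whether the OVOL2 effect differed between the 3 lines passed for 3 members without M2rtTA, where 2.74% of all genes were called: KRT18 (adjusted p = 1.46e-05), KRT19 (1.78e-08) and KRT80 (6.18e-05). With M2rtTA it passed for 5 members, where 7.56% were called: KRT7 (0.00858), KRT8 (0.00108), KRT18 (9.69e-08), KRT19 (5.99e-10) and KRT80 (0.000717). The last test did not pass for KRT7 when only the groups compared were fitted (adjusted p = 0.0716) or for KRT80 when the libraries were thinned (adjusted p = 0.0622).

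**Figure D2:**
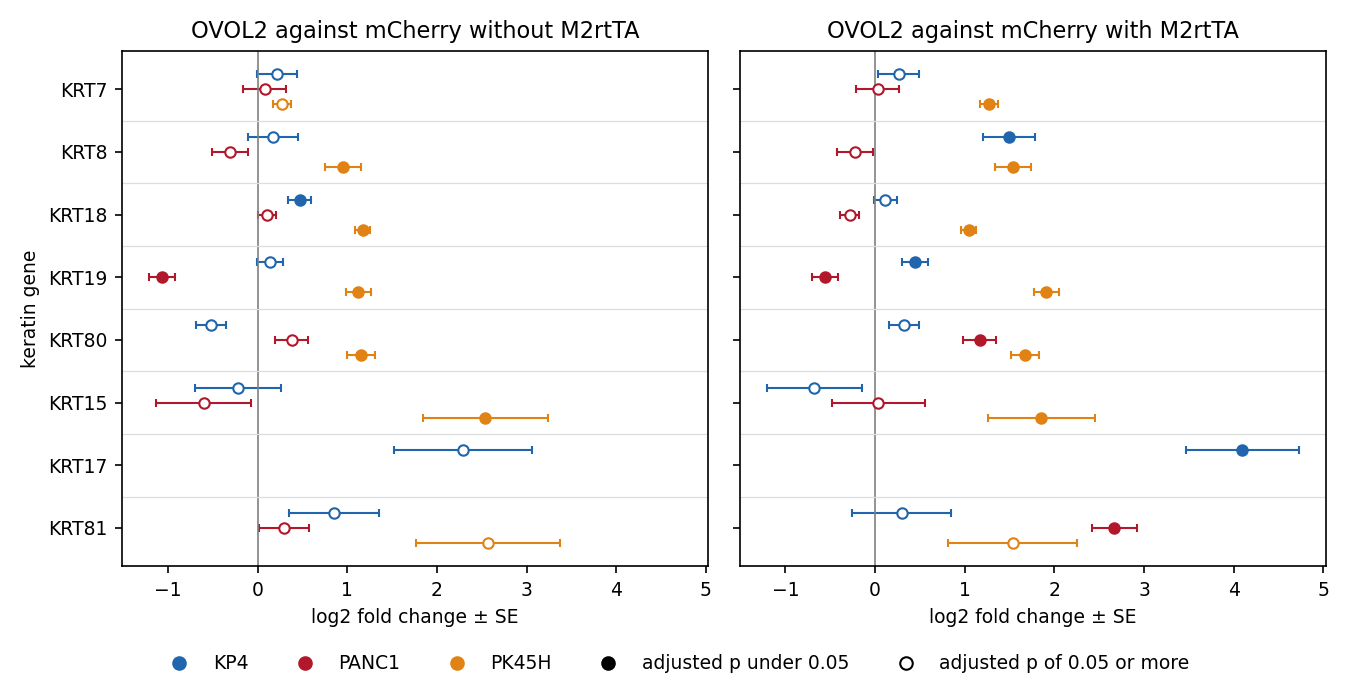
Log2 difference of OVOL2 against mCherry for each keratin tested, by line and M2rtTA state, with bars of ± the standard error. Filled points passed an adjusted p of 0.05. KRT19 lies above 0 in PK45H and below 0 in PANC1 in both states.

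PK45H had the most keratins called. Of the 7 tested, 5 rose without M2rtTA, where 8.39% of all genes were called (3.58% higher, 4.81% lower). With M2rtTA 6 rose, where 15.9% were called (7.45% higher, 8.40% lower), and none fell in either state. The median of the 7 was 1.15 without M2rtTA and 1.54 with it, against 0.00 and 0.01 over all genes. The OVOL2 groups with and without M2rtTA have separate mCherry controls here, each with 3 libraries.

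KRT19 read 92.2, 72.6 and 87.2 CPM in the PK45H mCherry libraries and 185, 206 and 169 CPM with OVOL2. With M2rtTA it read 68.3, 69.9 and 68 CPM with mCherry and 291, 248 and 233 CPM with OVOL2. No OVOL2 library overlapped with a control, and the differences were 1.12 (SE 0.14, adjusted p = 0.000152) and 1.91 (SE 0.14, adjusted p = 1.81e-06) on the log2 scale.

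KRT18 stood at 646, 629 and 666 CPM with mCherry and 1510, 1476 and 1476 CPM with OVOL2. In the M2rtTA arms it stood at 677, 595 and 603.5 CPM with mCherry and 1308, 1237 and 1305 CPM with OVOL2. The groups did not overlap, and the rises were 1.17 (SE 0.09, adjusted p = 2.18e-06) and 1.04 (SE 0.09, adjusted p = 5.61e-06). Its partner KRT8 went from 258, 345 and 265 CPM to 528, 526 and 664 CPM without M2rtTA and from 323, 201 and 282 CPM to 709, 798 and 819 CPM with it, again without overlap. The KRT8 rises were 0.95 (SE 0.20, adjusted p = 0.00920) and 1.54 (SE 0.20, adjusted p = 0.000206).

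KRT80, the keratin of the cell edge, read 48.7, 47.4 and 75.0 CPM with mCherry and 121, 134.5 and 131 CPM with OVOL2. With M2rtTA the values were 71.4, 82.3 and 84.7 CPM against 266, 252.5 and 239 CPM, which are the highest KRT80 levels in the table. The rises were 1.15 (SE 0.16, adjusted p = 0.000369) and 1.67 (SE 0.16, adjusted p = 1.42e-05), and the OVOL2 libraries did not overlap with their controls.

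For KRT7 the mCherry controls lay apart between the M2rtTA states. Without M2rtTA it read 1794, 1473 and 1923 CPM with mCherry and 2230, 1932 and 2212 CPM with OVOL2, a difference of 0.27 that did not pass (adjusted p = 0.123), although the OVOL2 libraries were all higher. With M2rtTA the mCherry libraries read 862, 934 and 956 CPM and the OVOL2 libraries 2228, 2162 and 2231 CPM, a rise of 1.27 (SE 0.10, adjusted p = 4.95e-06). The change of the OVOL2 effect with M2rtTA passed its own test for KRT7 (1.00, SE 0.14, adjusted p = 0.00414), as for 1.60% of all genes (0.839% higher, 0.758% lower), and KRT7 was the one member to do so in PK45H. The OVOL2 means were 2125 ± 167 CPM without and 2207 ± 39.4 CPM with M2rtTA, and the mCherry means were 1730 ± 231.5 and 918 ± 49.3 CPM. The fall of KRT7 from mCherry to mCherry with M2rtTA passed as well (-0.92, SE 0.10, adjusted p = 0.00537), 1 of 4 genes called of 13583 (0.0294%, with 0.0221% lower and 0.00736% higher). In a fit of all 51 libraries, the M2rtTA change was 0.97 and did not pass (adjusted p = 0.103), and the fall with mCherry was -0.91 and did not pass either (adjusted p = 0.0854). With only the groups compared in the fit, that fall was -0.92 and did not pass (adjusted p = 0.189).

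KRT15, a basal-layer type I keratin, read 0.738, 0.388 and 0.230 CPM in PK45H with mCherry, which is 5 counts in all and at the floor, and 3.78, 1.85 and 2.91 CPM with OVOL2, or 41 counts. The OVOL2 mean was at least 2.44-fold higher than 3 counts per library would be in the control (adjusted p = 0.0364). With M2rtTA, 13 counts stood against 33, at 0.592, 0.927 and 0.581 CPM against 2.03, 2.07 and 3.56 CPM (log2 difference 1.86, SE 0.60, adjusted p = 0.0492). The OVOL2 groups did not overlap with their mCherry controls, but leaving out 1 library ended the call in 5 of 6 fits without M2rtTA and in all 6 with it. KRT81 was higher in the OVOL2 libraries in both states without passing (adjusted p = 0.0641 and 0.173). Without M2rtTA, KRT86 averaged 1.25 CPM with mCherry and 0.510 CPM with OVOL2 (12 and 7 counts), with overlap. With M2rtTA, KRT86 was at the floor in both groups. Summing KRT81, KRT83 and KRT86 before the fit took the KRT81 difference from 2.57 to 1.201 without M2rtTA (adjusted p = 0.255). With M2rtTA that difference went from 1.53 to 1.305 (adjusted p = 0.180). Whether counts passed between these rows was not tested.

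In PANC1 the members moved in both directions. Without M2rtTA, 1 of the 7 tested was called (5.08% of all genes, 2.96% called lower), and this was a fall of KRT19. With M2rtTA, 2 rose and 1 fell (13.9% of all genes called, 5.76% higher and 8.18% lower). The median of the 7 was 0.08 and 0.03, against -0.02 and 0.02 over all genes.

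KRT19 read 508.5, 429 and 479 CPM in untreated PANC1, 249, 222 and 238 CPM with mCherry and 105, 108 and 123.4 CPM with OVOL2. The 3 groups did not overlap. With M2rtTA it read 242.5, 231 and 247 CPM with mCherry and 126.5, 189 and 162 CPM with OVOL2. The falls were -1.07 (SE 0.15, adjusted p = 0.000756) without M2rtTA and -0.56 (SE 0.14, adjusted p = 0.0197) with it, and the second rested on single libraries. It did not pass without replicate 1 (-0.41, adjusted p = 0.0632) or 3 of the OVOL2 and M2rtTA group or replicate 1 or 3 of its controls, with adjusted p up to 0.0742. KRT19 was also lower with mCherry than in untreated PANC1 (-0.98, SE 0.15, adjusted p = 0.00481), a contrast in which 0.598% of all genes were called and 0.325% called lower. Every OVOL2 library of PANC1 read KRT19 below every mCherry and untreated library of that line, while the epithelial marker sum was 430.5 to 532 CPM in the OVOL2 libraries and at most 209 CPM in the others.

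KRT80 rose in PANC1 with M2rtTA. Its mCherry libraries read 22.9, 31.1 and 23.9 CPM and its OVOL2 libraries 50.5, 63.8 and 56.7 CPM, a rise of 1.17 (SE 0.18, adjusted p = 0.000702), or 1.25 without replicate 1 of the OVOL2 group. Without M2rtTA the means were 20.5 ± 3.40 CPM and 26.5 ± 3.82 CPM, without overlap and without a call. KRT8 (-0.22, adjusted p = 0.520) and KRT18 (-0.29, adjusted p = 0.0761) did not pass with M2rtTA, although every OVOL2 library read KRT18 lower (943, 1079 and 1088 CPM against 1245, 1368 and 1268 CPM).

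KRT81, a hair keratin, read 3.56, 2.91 and 4.99 CPM in PANC1 with mCherry and M2rtTA, or 55 counts, and 22.7, 28.0 and 20.5 CPM with OVOL2 and M2rtTA, or 375 counts. The groups were far apart, and the rise was 2.67 on the log2 scale (SE 0.25, adjusted p = 9.83e-06), or 2.70 without replicate 1 of the OVOL2 group. Without M2rtTA the OVOL2 libraries read 4.57, 4.16 and 3.43 CPM, against a mCherry mean of 3.34 ± 0.369 CPM, and overlapped with the controls. The M2rtTA change of the OVOL2 effect passed for KRT81 (2.38, SE 0.37, adjusted p = 0.0215), 1 of 18 genes called of 13218 (0.136%, with 0.0530% higher and 0.0832% lower), but not in 8 of 12 fits that left out 1 library, with differences of 2.21 to 2.61 and adjusted p up to 0.0963 (2.41, adjusted p = 0.0531, without replicate 1 of the OVOL2 and M2rtTA group). KRT86, which overlaps KRT81 and whose coding end is printed above, read 0.445, 0.970 and 1.46 CPM with mCherry and M2rtTA and 3.42, 5.60 and 6.12 CPM with OVOL2 and M2rtTA (2.40, SE 0.65, adjusted p = 0.0239). Whether these are 2 changes or shared reads of 1 was not tested, but with KRT81, KRT83 and KRT86 summed before the fit the rise was 2.57 (adjusted p = 1.15e-05). The same sum took the mean rise of KRT81 without M2rtTA from 1.25 to 0.75 (adjusted p = 0.0411).

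In KP4, the line with the lowest untreated means of the 6 keratins tested there, 1 of the 8 keratins tested rose without M2rtTA (6.82% of all genes called, 3.26% higher) and 3 rose with it (22.4% and 9.91%), and none fell. The median of the 8 was 0.19 and 0.31, against 0.00 and 0.01 over all genes. The 1 keratin called without M2rtTA was KRT18, at 389, 366 and 396 CPM with mCherry and 508, 581.5 and 496 CPM with OVOL2 (0.47, SE 0.13, adjusted p = 0.0419). Those groups did not overlap, but no fit that left out 1 of the 6 libraries kept the call (adjusted p from 0.0721 to 0.161).

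KRT17, a keratin of stressed epidermis and of the basal-like form of pancreatic cancer, read 2.02, 0.511 and 0.583 CPM in KP4 with mCherry and M2rtTA, or 14 counts. With OVOL2 and M2rtTA it read 16.4, 20.1 and 17.7 CPM, or 286 counts. The libraries did not overlap, and the rise of 4.10 (SE 0.63, adjusted p = 0.000410) was the largest of any keratin called in a line. It was 4.16 without replicate 1 of the OVOL2 group (adjusted p = 0.00140). KRT17 passed the filter on low counts in KP4 only through its OVOL2 and M2rtTA group, where it is high. Its test and its rank are therefore no independent support. A library of the other KP4 groups had at most 7 counts untreated, 4 with mCherry, 9 with mCherry and M2rtTA, and 30 with OVOL2. Without M2rtTA it read 1.84, 1.33 and 4.70 CPM with OVOL2 against a mean of 0.559 ± 0.35 CPM, a difference of 2.29 that did not pass (adjusted p = 0.0960). In PANC1 with M2rtTA, KRT17 was outside the filter but read 1.47, 3.73 and 2.12 CPM with OVOL2 (41 counts) against 2 counts in the controls, at least 3.65-fold higher than 3 counts per library would be. In PK45H with M2rtTA it had 17 counts with OVOL2 and 7 with mCherry, and the groups overlapped.

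KRT8 read 104, 102 and 87.7 CPM in KP4 with mCherry and M2rtTA and 137, 290 and 398.5 CPM with OVOL2 and M2rtTA. All 3 OVOL2 libraries were higher, with replicate 1 closest to the controls. The difference was 1.5 (SE 0.29, adjusted p = 0.00196), or 1.82 without replicate 1 (adjusted p = 5.70e-05). KRT18 did not pass, at 384, 311 and 314 CPM against 312, 319 and 306 CPM (0.11, adjusted p = 0.573). KRT19 read 20.4, 25.1 and 19.6 CPM against 34.1, 29.2 and 24.6 CPM, with overlap (0.44, SE 0.15, adjusted p = 0.0461), and did not pass without replicate 1 (0.32, adjusted p = 0.182) or 2 of the OVOL2 and M2rtTA group or replicate 1 or 3 of its controls. For KRT19 the KP4 controls also lay apart, with means of 29.02 CPM with mCherry and 21.71 CPM with mCherry and M2rtTA. That difference of -0.42 did not pass (adjusted p = 0.640). The OVOL2 means were 31.77 CPM without M2rtTA and 29.32 CPM with it. The KRT19 call is thus a rise over the lower control, and the mean with OVOL2 and M2rtTA was close to that of mCherry alone. KRT80 differed by -0.52 without M2rtTA (adjusted p = 0.0774) and by 0.33 with it (adjusted p = 0.187).

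The controls themselves were compared to see how keratins differed without OVOL2. Between mCherry and untreated cells, in every line, the virus, polybrene, puromycin and doxycycline differ together and cannot be told apart. Between mCherry with M2rtTA and mCherry, M2rtTA differs. In edgeR's test no keratin passed between mCherry and untreated cells in KP4 or PK45H, where 0.00% and 0.00736% of all genes were called (the latter all lower). At an unadjusted p under 0.05, 2 members in KP4 and 4 in PK45H differed, and DESeq2 called 0 in both. The share of all genes at that unadjusted p is not given here. The unadjusted counts in this paragraph therefore show nothing particular to keratins. Between mCherry with M2rtTA and mCherry, 0 members passed in KP4 and in PANC1, where 0.00% of all genes were called in each, with 4 and 0 members at an unadjusted p under 0.05 and 0 by DESeq2 in both. The M2rtTA change of the OVOL2 effect passed for 0 of the 8 members in KP4, where 1.43% of all genes were called (0.417% higher, 1.01% lower), and for 1 without replicate 1 of the OVOL2 and M2rtTA group. In that line KRT8 (1.32, SE 0.40, adjusted p = 0.1198) and KRT80 (0.85, SE 0.24, adjusted p = 0.0936) were the 2 members at an unadjusted p under 0.05, and DESeq2 called 1 member.

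**Figure D3:**
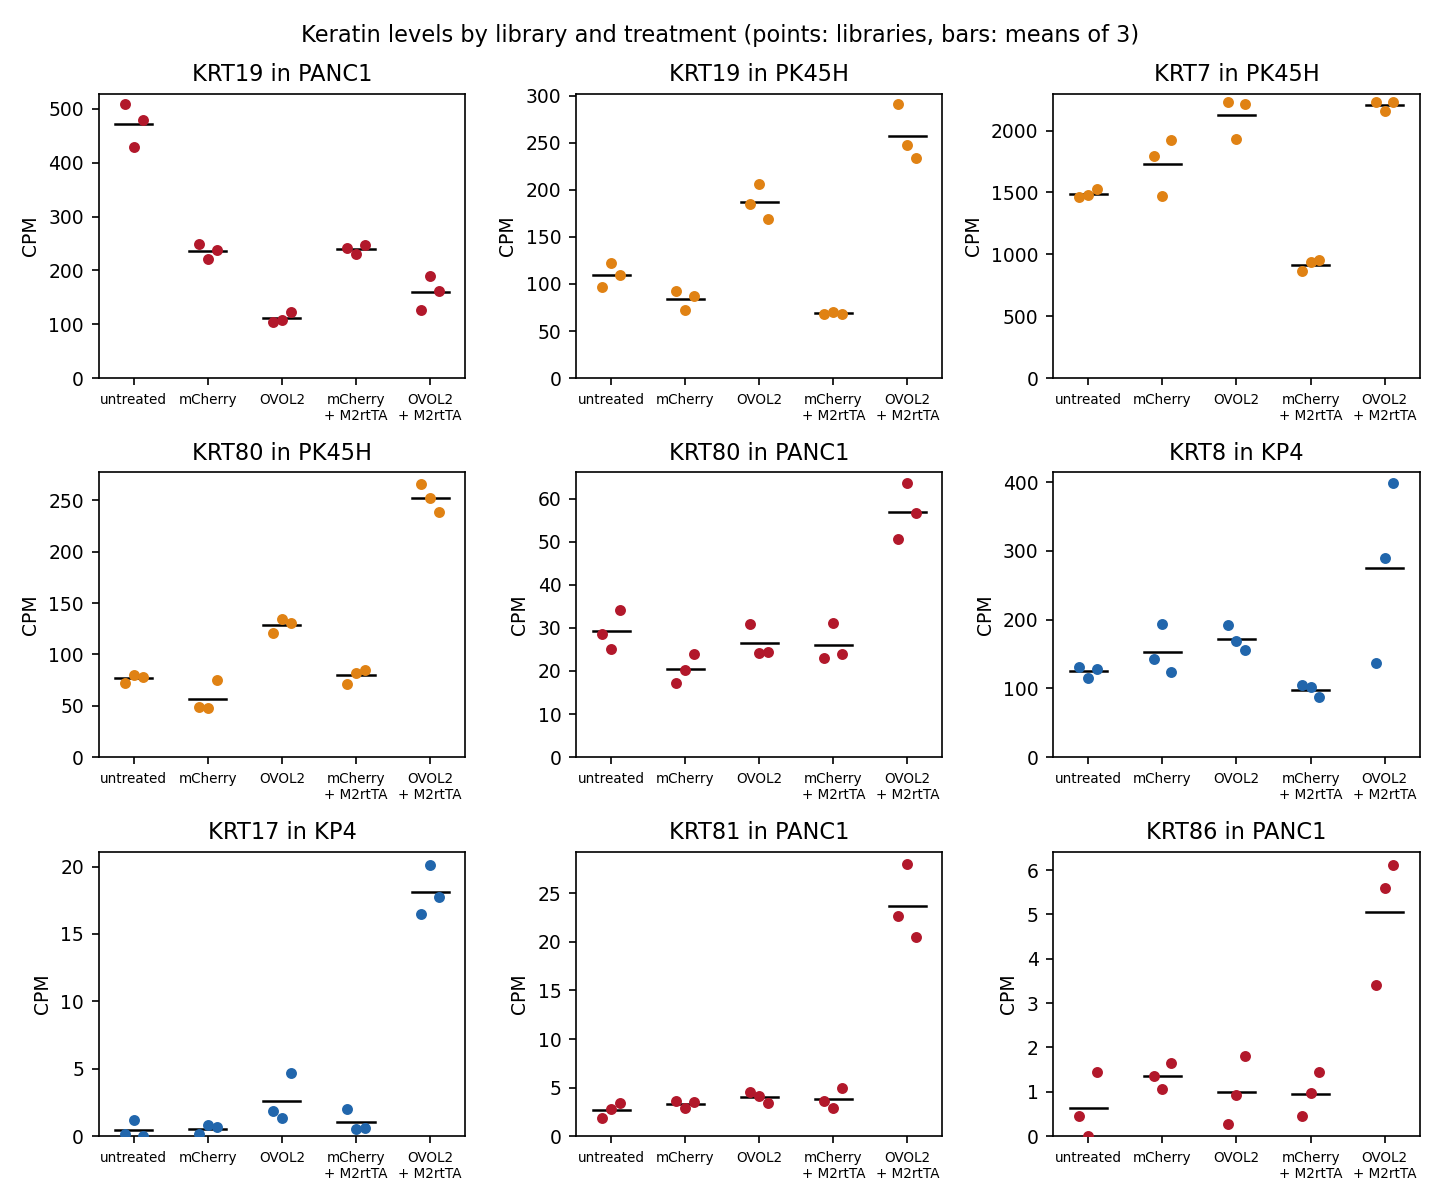
CPM of keratins by library (points) and group mean of 3 (bars) in 5 treatment states, for 9 pairs of gene and line, each on its own axis from 0. KRT19 is lower with OVOL2 in PANC1 and higher in PK45H, and KRT81 and KRT86 are high in PANC1 only with OVOL2 and M2rtTA together.

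KRT8 and KRT18 were set beside each other because their proteins pair. The log2 ratio of KRT8 to KRT18 CPM, which is read only as a change between groups, had means of -1.71 to -1.35 in the 4 other KP4 groups and -0.42 ± 0.957 (SD, n = 3) with OVOL2 and M2rtTA, where single libraries ran from -1.49 to 0.34. From mCherry to OVOL2, both with M2rtTA, it went from -1.24 ± 0.278 to -0.73 ± 0.135 in PK45H and from -1.15 ± 0.0958 to -1.11 ± 0.228 in PANC1. Without M2rtTA it went from -1.17 ± 0.266 to -1.39 ± 0.203 in PK45H and from -0.61 ± 0.3415 to -1.01 ± 0.2355 in PANC1. Over the 17 group means of log2 CPM, Pearson's r between KRT8 and KRT18 was 0.955, between KRT18 and KRT19 0.959, and between KRT8 and KRT19 0.950, whereas KRT7 correlated with KRT80 at 0.786 and with KRT8 at 0.410. The 17 groups come from 5 lines, so that these points are not independent.

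**Figure D4:**
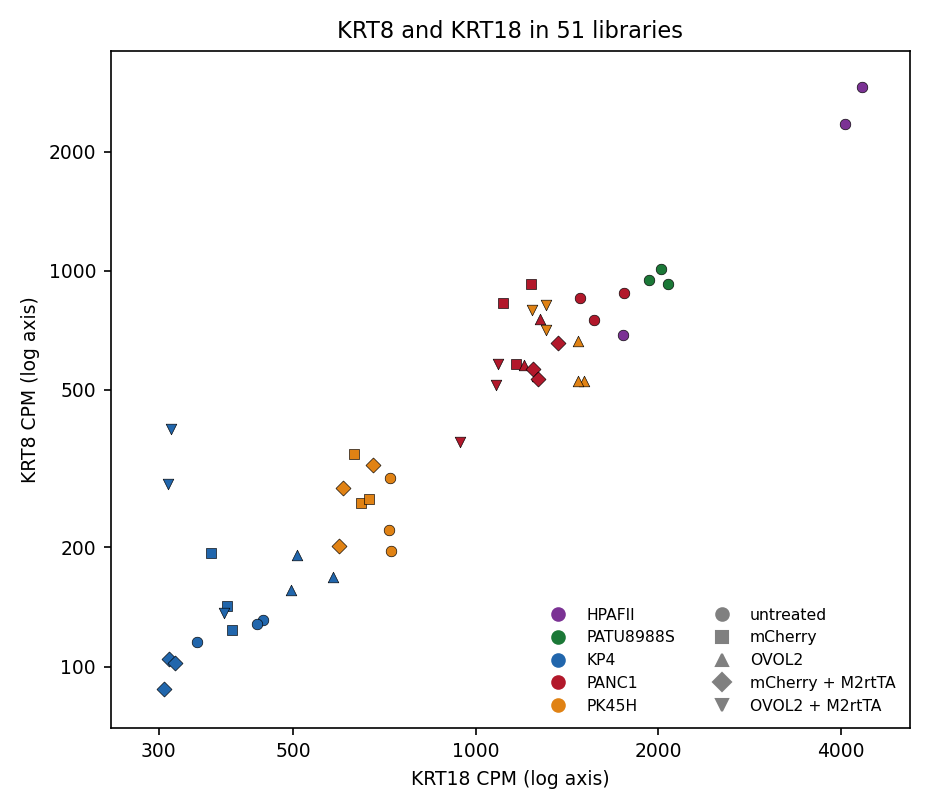
KRT8 against KRT18 CPM in the 51 libraries, on log axes, coloured by line and marked by treatment. The lines lie along one diagonal band, and 2 KP4 libraries with OVOL2 and M2rtTA lie above it, at 290 and 398.5 CPM of KRT8.

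Outside the family, the genes whose group means followed each keratin most closely among 10279 genes were ACSL5 (r = 0.978) and ALDH3A1 (0.972) for KRT7, MANBA (0.960) and STK35 (0.908) for KRT8, ALDH1A3 (0.950) and MANBA (0.938) for KRT18, SHB (0.934) and MANBA (0.921) for KRT19, and PTPRA (0.941) and CYHR1 (0.930) for KRT80. MANBA encodes a mannosidase of the lysosome. The processed pseudogene KRT8P46, at 102728746 to 102730171 on chromosome 4, lies within MANBA (102630770 to 102760994) on the same strand. Over their whole transcripts, KRT8 and MANBA share 22 words of 31 bases. The part of these shared words in the likeness was not tested.

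Of 45 other keratin genes in the table, 23 never exceeded 3 counts in a library and 4 reached a group mean of 5 CPM. KRT23, a type I keratin, was 110 ± 54.1 CPM in HPAFII and at most 2.43 CPM in any other group, so that HPAFII and PATU8988S together lay 5.36 above the other lines (adjusted p = 8.52e-06). KRT20, the intestinal type I keratin, was 8.35 ± 4.61 CPM in HPAFII (2.91, adjusted p = 0.000904). KRT10, a type I keratin of upper epidermis, had group means of 20.4 to 44.6 CPM, was lower in HPAFII and PATU8988S (-0.63, adjusted p = 0.00710) and passed in no OVOL2 contrast. KRT86 is described above, and of the 3 other keratins tested over the lines none passed in either OVOL2 mean.

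Genes that anchor or bind keratin filaments were followed as a list of 22, chosen with earlier results of these data known. On the mean over lines, 7 of the 20 tested rose and 3 fell without M2rtTA, and 9 rose and 2 fell with it. Of all genes, 9.32% rose and 8.81% fell without M2rtTA, and 15.7% rose and 17.3% fell with it. The list medians were 0.03 and 0.26, against 0.00 and 0.03 over all genes. JUP, the plaque protein plakoglobin, rose by 1.24 and 1.46 (SE 0.12 in both, adjusted p = 1.35e-09 and 8.86e-12). FAM83H, which recruits a kinase to keratin filaments, rose by 1.03 and 1.26, and SFN, a 14-3-3 protein that binds keratins, by 0.83 and 0.96. CD151, a tetraspanin of hemidesmosomes, fell by 0.19 and 0.50, PKP4, a plakophilin, fell by 0.37 and 0.93, and EPPK1, a keratin linker, fell by 1.14 without M2rtTA (adjusted p = 0.0452) but differed by -0.06 with it (adjusted p = 0.930). In the untreated lines 12 of the 20 were higher and 2 lower in HPAFII and PATU8988S, where 17.4% of all genes were higher and 17.4% lower.

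Other intermediate filament genes, a list of 14, were followed for comparison. Of 9 tested, 5 fell and none rose without M2rtTA, where 8.81% of all genes fell and 9.32% rose. With M2rtTA 5 fell and 1 rose, where 17.3% of all genes fell and 15.7% rose. The list medians were -0.51 and -0.45 against 0.00 and 0.03 over all genes. VIM, the vimentin gene of mesenchymal cells, fell by 1.85 (SE 0.07, adjusted p = 2.13e-19) and 1.33 (SE 0.07, adjusted p = 2.93e-16), although in PK45H with M2rtTA it differed by -0.43 without passing (adjusted p = 0.121). SYNM, a filament partner of vimentin, fell by 1.21 and 1.56, and the lamin gene LMNB2 by 0.37 and 0.75. The gene that rose was PRPH, a neuronal filament, by 1.99 with M2rtTA (adjusted p = 0.00282), and its transcripts share 29 words of 31 bases with the KRT7 ends.

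Of 29 squamous and stratified-epithelium genes in the table, 11 were tested and 4 rose without M2rtTA and 6 with it (9.32% and 15.7% of all genes rose), and none fell, with list medians of 0.69 and 0.73 against 0.00 and 0.03 over all genes. LAMB3, a laminin chain of the epithelial basement membrane, rose by 1.02 and 0.73 (adjusted p = 4.21e-05 and 0.000940). S100A2, a calcium-binding protein of basal epidermis, differed by 0.05 without M2rtTA (adjusted p = 0.864) and rose by 1.11 with it. SFN belongs to this list and to that of the filament anchors.

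Summed levels of other markers also differed between some OVOL2 groups and their mCherry controls. In the libraries with OVOL2 and M2rtTA, where 7 keratins rose on average, the summed CPM of 6 fibroblast markers was 42.8 to 52.6 in KP4 against 12.8 to 24.2 with mCherry, 48.8 to 66.1 in PANC1 against 27.8 to 39.3, and 26.3 to 33.2 in PK45H against 11.5 to 13.5. On the mean over lines with M2rtTA, 1 of the 4 fibroblast markers tested was called higher and none lower (median 0.17). Of all genes, 32.9% were called there, 15.7% higher. In PANC1 1 was called higher and 1 lower, where 5.76% of all genes were higher and 8.18% lower. Without M2rtTA, 1 of 4 was called lower and none higher on that mean (median -0.17), where 8.81% of all genes were lower. In the OVOL2 groups, 3 or 4 of the 6 were over 3 counts in a library (COL1A1, COL1A2 and DCN, with THY1 in KP4 and PANC1), LUM was at 0 in PANC1 and PDGFRB was at 0 in PK45H. In PK45H the sum of 4 acinar markers was 5.67 to 7.42 CPM with OVOL2 against 0 to 0.777 CPM with mCherry, and 4.74 to 6.08 CPM against 0.145 to 0.927 CPM with M2rtTA. PRSS1 was the one acinar marker over 3 counts in those OVOL2 libraries, CPA1 was at 0 without M2rtTA and AMY2A at 0 with it. The part of these genes' sources in the keratin results was not tested.

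The RefSeq promoter table (GRCh38.p14, 250 bases before to 50 after each start) held 2 of the 10 genes, KRT5 and KRT8. The KRT8 window, at 52926420 to 52926719, lies inside that gene's span of 52897187 to 52949954. Other starts of KRT8, which has 17 annotated transcripts, were not searched. CCGTTA, the core of the OVOL motif, was searched on both strands and occurred in neither window, and 3.07% of all 35116 promoters hold it. CAGGTG, the E-box bound by ZEB and SNAI factors, occurred once in the KRT5 window, 130 bases before the start, and not in that of KRT8, and 20.6% of all promoters hold it. These are matches of letters in a short window and say nothing of binding.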

How the data were processed

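The authors deposited raw counts per gene symbol for 51 PLATE-seq libraries. Kallisto 0.44.0 and GRCh38 are named in the submitters' processing notes, without their roles, and whether the whole-number counts are rounded estimates, and how strand, shared reads and molecular identifiers were handled, is not given in the sources used here. Each column was matched to a sample by its label, and 0 columns of values stayed unmatched. The keratins and gene lists were chosen with earlier results of these data known.

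Tests used edgeR 4.0.16 in R 4.3.3: filterByExpr by group, TMM scaling and the two-sided quasi-likelihood test on 15 libraries per transduced line, on the 45 libraries of these lines, or on the 15 untreated libraries. Benjamini-Hochberg adjustment ran over all genes tested, with a threshold of 0.05. Levels are TMM-scaled CPM. A group with at most 3 counts in every library was at the floor, and a bound takes 3 counts in the control library where they weigh most; it covers counting error only. The scripts were tested on simulated data.

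Genes were named by rule: all 10 keratins, OVOL2, other keratins with a group mean of at least 5 CPM, up to 3 list genes per direction with the smallest adjusted p in each mean over lines, and the 2 genes most like each keratin of at least 5 CPM. One gene so chosen is not reported here. PRSS1 and other markers were named after their values were seen. The alternatives were RLE factors, robust dispersion, a filter at a mean count of 10 or none, DESeq2 1.42.0, other sets of libraries in the fit, thinning to 1165399 counts, summed paralogs, a replicate block, and leaving out each library.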

Additional observations from a re-analysis of the deposited data

Results flagged for a closer look

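The OVOL2 effect on 3 keratins differed between KP4, PANC1 and PK45H without M2rtTA, by edgeR's quasi-likelihood test of equal effects: KRT18 (adjusted p = 1.46e-05), KRT19 (adjusted p = 1.78e-08) and KRT80 (adjusted p = 6.18e-05). KRT19 rose by 1.12 in PK45H and fell by 1.07 in PANC1 on the log2 scale, KRT18 rose by 1.17 in PK45H and 0.47 in KP4, and KRT80 rose by 1.15 in PK45H but differed by -0.52 in KP4 without passing.

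With M2rtTA the effect differed between the lines for 5 keratins: KRT7 (adjusted p = 0.00858), KRT8 (adjusted p = 0.00108), KRT18 (adjusted p = 9.69e-08), KRT19 (adjusted p = 5.99e-10) and KRT80 (adjusted p = 0.000717). KRT7 and KRT18 passed in PK45H and in neither other line, KRT8 passed in PK45H and KP4, and KRT80 passed in PK45H and PANC1. KRT19 rose by 1.91 in PK45H and fell by 0.56 in PANC1.

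The test of an M2rtTA change of the OVOL2 effect passed for KRT81 in PANC1 (adjusted p = 0.0215) and for KRT7 in PK45H (adjusted p = 0.00414). In the first the OVOL2 group moved, from 4.05 ± 0.579 to 23.7 ± 3.87 CPM (SD, n = 3), and in the second the mCherry group, from 1730 ± 231.5 to 918 ± 49.3 CPM. The KRT81 call was lost in 8 of 12 fits that left out 1 library. With all 51 libraries in the fit, neither KRT81 (adjusted p = 0.0818) nor KRT7 (adjusted p = 0.103) passed.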

How the results depend on the processing

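Over the keratins tested for the OVOL2 effect and those called in the other comparisons, 1978 values were recomputed: 1882 kept their direction and side of the threshold, 76 no longer passed, 7 newly passed and 13 changed sign, all 13 without a call in the main analysis. Summing paralogs added no counts to KRT7, KRT8, KRT15, KRT19 or KRT80, so that their values could hardly move in that setting. Counts of keratins called moved by more than 1.5 times as follows. In KP4 without M2rtTA the count went from 1 to 0 with no filter, the replicate block, thinning, all 51 libraries and only the groups compared, and to 2 with DESeq2. The M2rtTA change went from 0 to 1 in KP4 with DESeq2 and from 1 to 0 in PANC1 with the block and with all 51 libraries. DESeq2 also called 0 in PANC1, but it gave KRT81 no adjusted p there. In PK45H the M2rtTA change went from 1 to 2 with a mean count of 10, robust dispersion and DESeq2, and to 0 with all 51 libraries. PANC1 mCherry against untreated went from 1 to 2 with robust dispersion and DESeq2, and the M2rtTA contrast of mCherry in PK45H from 1 to 0 with all 51 libraries and with only the groups compared. The mean without M2rtTA went from 3 to 1 with thinning and its difference between lines from 3 to 5 with DESeq2. Smaller moves were losses of KRT19 in KP4 with M2rtTA (7 of 10 settings), of KRT15 in PK45H with M2rtTA (3 of 8), of KRT8 and KRT18 between PATU8988S and HPAFII (3 and 2 of 10), and of KRT7 and KRT80 in the difference between lines with M2rtTA (1 of 10 each). The cause was not tested, beyond the fewer genes or libraries that some settings leave.

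Leaving out each library gave these lowest and highest counts: KP4 without M2rtTA 0 and 0, with it 2 and 3, its M2rtTA change 0 and 1; PANC1 1 and 1, 2 and 3, and 0 and 1; PK45H 4 and 5, 5 and 5, and 1 and 1. For the means over lines they were 3 and 3 without and 7 and 7 with M2rtTA, and for the difference between lines 3 and 4 and 5 and 5. For the untreated lines they were 6 and 8 for any difference, 4 and 5 for HPAFII with PATU8988S against the others, 3 and 8 for PATU8988S against HPAFII, and 42 and 52 over the pairs.

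The 13 changes of sign were in these log2 differences. Leaving out each library gave, for KP4, KRT15 from -0.593 to 0.224 without M2rtTA (positive without OVOL2 replicate 2, at 0.101, and without mCherry replicate 1) and KRT7 from -0.054 to 0.395 with it. It gave, for PANC1, KRT7 from -0.0762 to 0.224 without M2rtTA, and with it KRT7 from -0.247 to 0.198 (also negative without mCherry replicate 3, at -0.167) and KRT15 from -0.207 to 0.404 (also -0.173 and -0.0333 without OVOL2 replicate 3 and mCherry replicate 2). For the mean without M2rtTA it gave KRT17 from -0.624 to 2.24. The other settings with a change of sign were in PANC1: KRT81 without M2rtTA at -0.564 with thinning, and with M2rtTA KRT7 at -0.0030 and KRT15 at -0.0045 with all 51 libraries.

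Same-numbered replicates of a line did not deviate together (median r -0.0058 over 90 pairs of libraries, 4 over 0.1). The main tests did not use the numbers as pairs, and the labels do not say whether same-numbered libraries were handled together. With a replicate block the keratin counts were 0 in KP4 without M2rtTA and 0 for the M2rtTA change in PANC1. Depth limits KRT5, KRT6A, KRT15 and KRT17, whose counts are few.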
